A study of Mus musculus with 4 samples.

Results

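NF-kB transcription factors, their inhibitors and their feedback regulators were measured by poly(A) RNA sequencing in mouse splenic B cells activated in culture. The set held 10 genes, found by symbol among 55401 rows of the count table: the 5 subunits Nfkb1, Nfkb2, Rel, Rela and Relb, the IkB family members Nfkbia, Nfkbie and Bcl3, the ubiquitin-editing enzyme Tnfaip3, and the adaptor Traf1. There were 2 libraries labelled as an Adar1 B-cell conditional knockout (Adar1 cKO) and 2 wild-type libraries. All came from C57BL/6 spleen, purified with anti-CD43 beads. Every culture received both stimuli, anti-CD40 (1 µg/ml) and anti-IgM (10 µg/ml), over 36 h, so no group lacked them. Adar1 edits adenosine to inosine in double-stranded RNA. The sources used here do not give the Cre driver, the deleted exons or the age of the mice. They leave unsaid if each library had its own mouse or culture, so p-values refer to the spread among the 4 libraries, which may in part be technical.

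In resting cells, IkB proteins hold NF-kB dimers in the cytoplasm. Signals from the B-cell receptor activate the IKK complex, which marks IkB for degradation and frees dimers of Rel, Rela and the processed product of Nfkb1. CD40 does the same and also stabilises the kinase NIK, which leads to processing of the Nfkb2 precursor and release of its product with Relb. NF-kB then induces its own subunits, its inhibitors and Tnfaip3, which closes feedback loops and makes these transcripts common readouts of pathway activity. Transcript levels do not measure the nuclear or processed proteins.

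Because feedback runs through the promoters of these genes, matches to the kB consensus were located around their RefSeq transcription starts (build GRCm38.p6, 250 bases before to 50 bases after each start, both strands). The RefSeq table held 8 of the 10 genes, with 11 start windows. Nfkb1 and Relb were not among them. Of the 8 genes, 6 had a match in at least 1 window: Nfkb2, Rel, Nfkbia, Nfkbie, Bcl3 and Tnfaip3. Over all genes of the table, 5.14% of 27025 symbols had one, and by window 4.51% of 32851. Rela and Traf1 had none in these windows. Matches are letters in a window and do not show binding.

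The 5 upstream stretches below are shown because they carry the matches. Capitals mark bases inside a match, and matches that overlap run together. They are the 250 bases before the start of Nfkb2 (first of 3 starts, chr19:46304487-46304736, plus strand), Rel (chr11:23770970-23771219, minus strand), Nfkbia (chr12:55492648-55492897, minus strand), Nfkbie (chr17:45555450-45555699, plus strand) and Tnfaip3 (first of 2 starts, chr10:19015411-19015660, minus strand).
Nfkb2: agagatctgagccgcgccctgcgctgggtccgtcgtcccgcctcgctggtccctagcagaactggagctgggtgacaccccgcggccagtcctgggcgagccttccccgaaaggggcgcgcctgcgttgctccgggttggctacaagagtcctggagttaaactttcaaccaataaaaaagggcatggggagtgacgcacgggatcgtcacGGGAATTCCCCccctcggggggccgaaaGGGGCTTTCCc
Rel: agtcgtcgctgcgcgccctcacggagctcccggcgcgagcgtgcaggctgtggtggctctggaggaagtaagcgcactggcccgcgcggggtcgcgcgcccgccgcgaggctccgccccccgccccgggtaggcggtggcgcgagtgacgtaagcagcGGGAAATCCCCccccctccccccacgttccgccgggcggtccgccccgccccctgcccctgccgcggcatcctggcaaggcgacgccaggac
Nfkbia: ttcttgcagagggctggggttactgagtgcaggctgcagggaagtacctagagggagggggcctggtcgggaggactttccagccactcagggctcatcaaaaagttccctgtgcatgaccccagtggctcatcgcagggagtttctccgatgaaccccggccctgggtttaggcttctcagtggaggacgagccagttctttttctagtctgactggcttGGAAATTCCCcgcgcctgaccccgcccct
Nfkbie: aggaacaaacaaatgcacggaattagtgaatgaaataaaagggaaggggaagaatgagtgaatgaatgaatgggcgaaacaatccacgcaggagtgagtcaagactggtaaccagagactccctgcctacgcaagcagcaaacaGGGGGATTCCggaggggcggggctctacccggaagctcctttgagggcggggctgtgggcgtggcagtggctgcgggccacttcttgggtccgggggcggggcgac
Tnfaip3: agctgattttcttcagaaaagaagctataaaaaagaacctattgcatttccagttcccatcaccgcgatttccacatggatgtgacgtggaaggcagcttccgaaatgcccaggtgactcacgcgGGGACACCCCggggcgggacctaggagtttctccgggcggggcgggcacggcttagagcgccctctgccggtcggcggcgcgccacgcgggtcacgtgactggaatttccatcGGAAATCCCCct

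Nfkb2 had 3 matches before its first start, 2 of them overlapping, and GGGAATTCCC reads as a match on both strands. Its other two start windows share the match GGGACTTTCC. Rel had GGGAAATCCC, also on both strands, ending 83 bases before its start. The Nfkbia match lay closest to a start among the single matches upstream, 29 to 20 bases before it. Tnfaip3 had a pair at its first start, and none in the window of its second. The match of Bcl3, GGGAAGTCCC on the opposite strand, lay 2 to 11 bases after the start base, outside an upstream stretch. Bcl3, which fell, and Tnfaip3, which rose, both held a match. Traf1, which also rose, held none in this window, and Relb, which rose, had no window. Nfkb2, Rel, Nfkbia and Nfkbie held a match and were not called. The part of these matches in the changes was not tested.

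**Figure D1:**
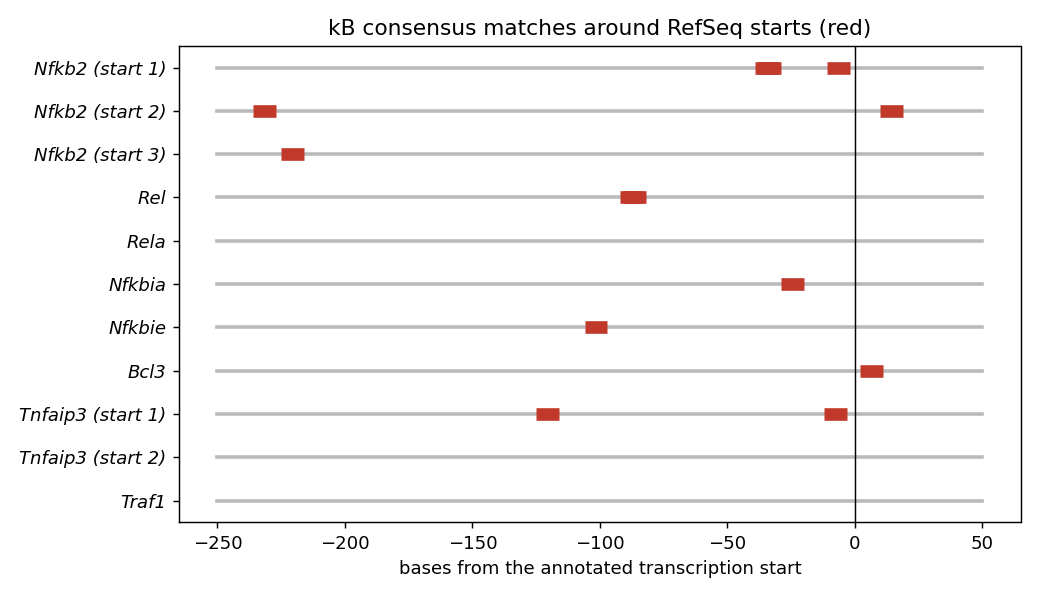
Positions of kB consensus matches (red) in bases from each RefSeq start, which is at 0, for the 11 start windows of 8 genes; starts of 1 gene are numbered in the direction of transcription. Matches stand in 8 of the 11 windows, and the windows of Rela, Traf1 and the second start of Tnfaip3 hold none.

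Total counts were 17327480 to 19669651 per library, and 14180 genes were tested. Adar was higher in the libraries labelled cKO, at 218 and 233 CPM against 137 and 150.0 CPM in wild type, which goes against the direction the label names. They are therefore called cKO-labelled, and every direction below rests on that label. A gene-level count is blind to which part was deleted, and Chrnb2 overlaps Adar by 1365 exonic bases on the opposite strand. Wild-type library 2 stood apart in ribosomal RNA, with 87852 counts in such rows against 7811 in wild-type library 1. B-cell identity was clear in all libraries. The 7 B-cell markers summed to 3441 and 3537 CPM in cKO-labelled libraries and 4530 and 4507 CPM in wild type. Of the 7, 5 were lower and 0 higher, where 9.54% and 12.2% of all genes tested were.

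All 10 genes were well expressed and passed the low-count filter, with between 759 and 18370 counts in a library. CPM are counts scaled to a common TMM library size, without correction for gene length. Each change is the log2 ratio of cKO-labelled over wild type ± SE (n = 2 libraries per genotype). Adjusted p-values are from the quasi-likelihood test of edgeR, with Benjamini-Hochberg adjustment over all 14180 genes. A gene was called at an adjusted p under 0.05. Of the 10 genes, 3 rose (Relb, Tnfaip3 and Traf1), 1 fell (Bcl3) and 6 were not called. Over all genes tested, 21.7% were called, 12.2% as higher and 9.54% as lower. Among the 5483 genes averaging 40 CPM or more, a floor set after the data were seen and just under the level of Bcl3, 29.9% were called, and the 4 calls among the 10 genes are to be read against that share. The changes of the 10 ran from -0.41 to 0.35 with a median of 0.05, against a median of -0.0058 over all genes tested. The libraries of the genotypes did not overlap for 7 of the 10 (4 higher and 3 lower in cKO-labelled libraries), against 57.9% of all genes tested (29.2% higher and 28.7% lower).

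**Figure D2:**
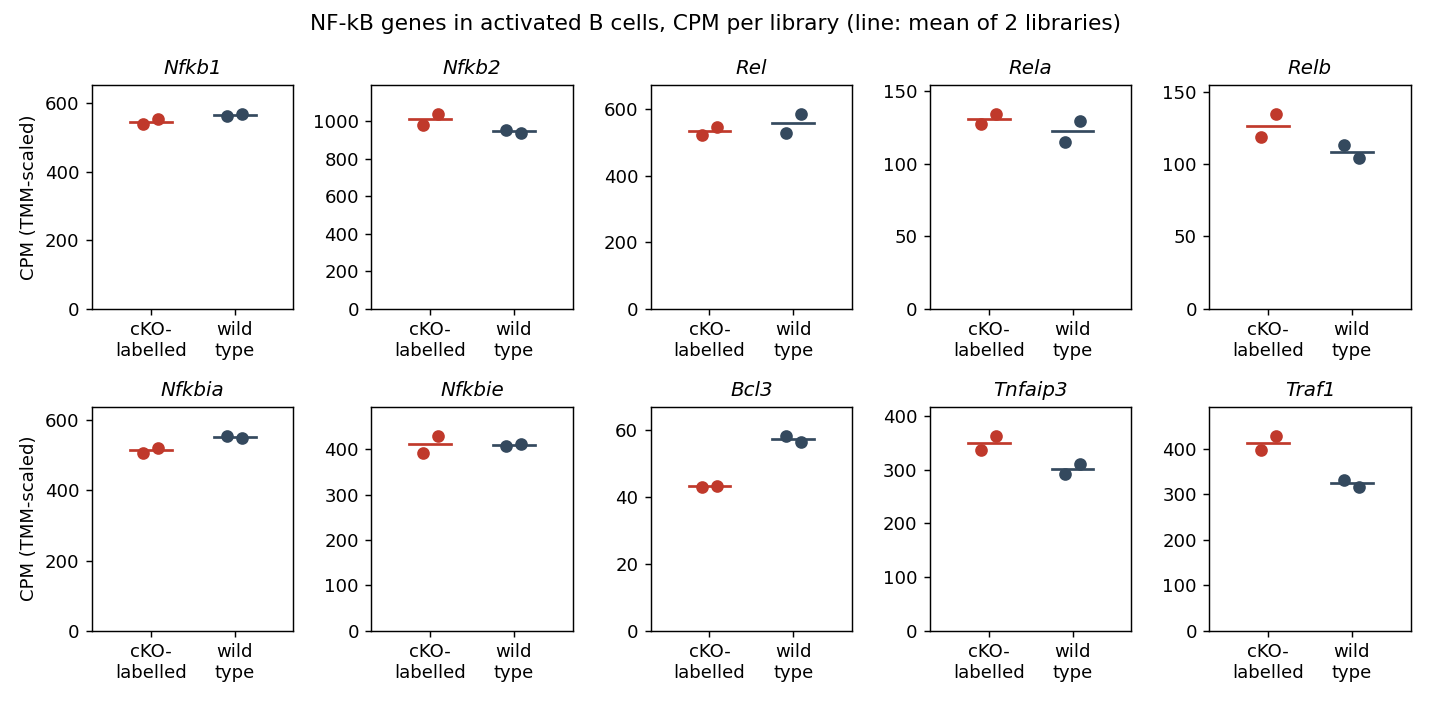
CPM of each gene in each library (points) with the mean of the 2 libraries (line), cKO-labelled in red and wild type in dark blue, each axis starting at 0. The points of the genotypes are apart for Traf1, Tnfaip3, Relb and Bcl3, where the test called a change, and also for Nfkb1, Nfkb2 and Nfkbia, where it did not.

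Among the subunits, Relb rose and the other 4 were not called. Relb encodes the partner of the processed Nfkb2 product in the pathway that CD40 opens through NIK. Its level was 119 and 134 CPM in cKO-labelled libraries, against 113 and 104 CPM in wild type. The lowest cKO-labelled library was only 1.05 times the highest wild-type library. Relb (ENSMUSG00000002983, chromosome 7, 19606217 to 19629438) changed by 0.22 ± 0.068, a 1.17-fold rise (edgeR, adjusted p = 0.0212). This call was lost without wild-type library 2 (0.15, adjusted p 0.235), without cKO-labelled library 2 (0.13, adjusted p 0.245) and with DESeq2 (0.22, adjusted p 0.0770).

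Nfkb2, which encodes the precursor that NIK signalling processes and that restrains Relb until then, stood at 980.1 and 1037 CPM in cKO-labelled libraries, against 955 and 934 CPM in wild type. It ranked 85th of the genes tested by mean CPM, the highest rank of the set. The genotypes did not overlap, but the change of 0.09 ± 0.053 (95% interval -0.02 to 0.20) was not called (edgeR, adjusted p = 0.233). Psd overlaps 299 exonic bases of Nfkb2 (ENSMUSG00000025225, chromosome 19, 46304320 to 46312385) on the opposite strand, and the libraries carry no strand information.

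Nfkb1, whose precursor gives the common partner of Rel and Rela, stood at 539 and 554 CPM in cKO-labelled libraries, against 563 and 569 CPM in wild type. The cKO-labelled libraries were both lower, by a margin smaller than the test could call: -0.05 ± 0.056 (95% interval -0.16 to 0.07). Rel encodes c-Rel, the subunit that B cells need to proliferate after receptor stimulation. It had 523 and 548 CPM in cKO-labelled libraries and 529.7 and 586 CPM in wild type, so the genotypes overlapped. Its change was -0.06 ± 0.060 (95% interval -0.19 to 0.07). Rela encodes p65, the broadly expressed activating subunit. It had 127 and 134 CPM in cKO-labelled libraries and 115 and 129.8 CPM in wild type, again with overlap, and a change of 0.09 ± 0.065 (95% interval -0.04 to 0.23). In this fit, for none of Nfkb1, Nfkb2, Rel and Rela did the 95% interval reach a log2 change of 0.3 in either direction. That bound is of this fit only: with the trend over GC content removed (below), Nfkb2 and Rela were called higher, at 0.23 and 0.22. Intervals were not computed there.

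Levels between genes were compared by the authors' FPKM, which divide counts by the exonic length of the gene. Nfkb2 made up 53.37% and 53.39% of the summed FPKM of the 5 subunits in cKO-labelled libraries, and 53.06% and 51.15% in wild type. Rel followed at 17.48% and 17.31% in cKO-labelled libraries, against 18.07% and 19.70% in wild type. By this measure Relb was the smallest share in every library, at 7.63% and 8.16% in cKO-labelled libraries and 7.43% and 6.71% in wild type. The make-up was thus alike in all 4 libraries, with no share moving by more than a few percentage points. The Nfkb2 and Relb FPKM together, divided by those of Nfkb1, Rel and Rela, gave 1.56 and 1.60 in cKO-labelled libraries, against 1.53 and 1.37 in wild type. With 2 libraries against 2, an exact permutation test cannot go below a p of 0.333, so no test is given for these ratios. The shares and ratios also depend on the length given to each gene. For Nfkb1 it was 12061 bases, against 4117 for its longest coding transcript.

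**Figure D3:**
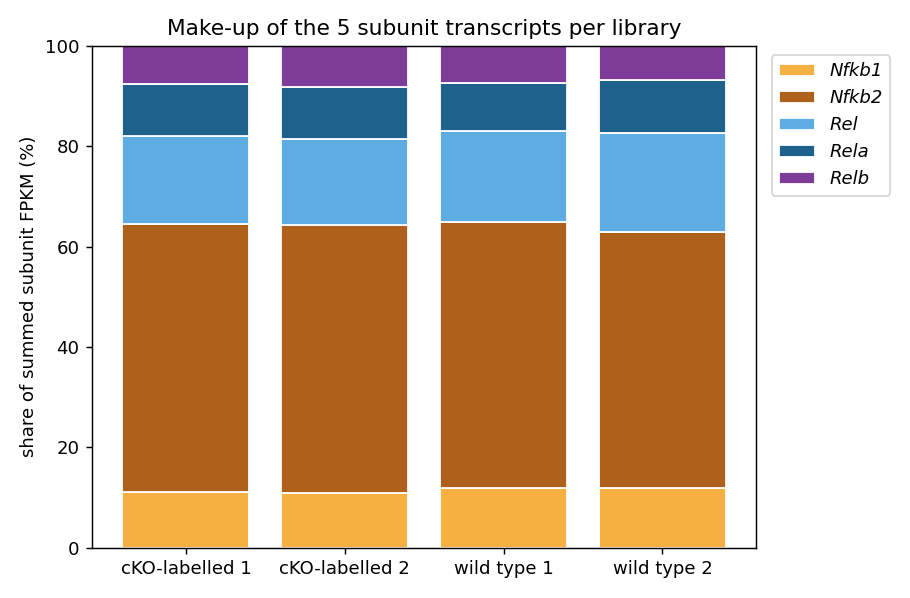
Share of each subunit gene in the summed FPKM of the 5 subunits (percent), with 1 bar per library. Nfkb2 takes 51.15% to 53.39% of the sum in every library, and the bars of the genotypes differ little.

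Over the whole set, mean FPKM of the 4 libraries ran in the order Nfkbia (331), Nfkb2 (213), Nfkbie (135), Rel (73.1), Nfkb1 (46.0), Tnfaip3 (45.0), Traf1 (41.7), Rela (41.2), Relb (30.2) and Bcl3 (20.3). The ranges over libraries were apart between neighbours from Nfkbia down to Nfkb1, and again between Rela, Relb and Bcl3. Tnfaip3 (40.3 to 50.2 FPKM) and Traf1 (35.8 to 48.5 FPKM) overlapped in range with each other, with Nfkb1 (44.8 to 47.1 FPKM) and with Rela (37.3 to 43.7 FPKM), while Nfkb1 was above Rela in every library. The order also depends on the length used. The table gives Nfkb1 an exonic length of 12061 bases, while its longest coding transcript in GENCODE M21 has 4117. Per that transcript length, a choice made after the data were seen, Nfkb1 stood at 135 and ranked 4th, and Rel at 73.1 ranked 7th. On that scale Nfkb1 rather than Rel was second to Nfkb2 among the subunits, and Relb averaged 53.2 and Rela 46.6, with Relb above Rela in 3 of the 4 libraries.

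The inhibitors did not move as one: Bcl3 fell, and neither Nfkbia nor Nfkbie was called. Bcl3 is an IkB family member that stays in the nucleus, where it binds dimers of the processed Nfkb1 and Nfkb2 products and can activate as well as repress. It had 43.1 and 43.5 CPM in cKO-labelled libraries, against 58.4 and 56.5 CPM in wild type. The replicates of each genotype lay close together and the genotypes were well apart. Bcl3 (ENSMUSG00000053175, chromosome 7, 19808462 to 19822770) changed by -0.41 ± 0.075, to 0.754 of the wild-type level (edgeR, adjusted p = 0.000256). The call held in all 12 alternatives, with changes of -0.44 to -0.27. Bcl3 lies 179 kb from Relb on the same strand of chromosome 7, and these genes were called in opposite directions in the 4-library fit.

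Nfkbia encodes IkB alpha, which is degraded within minutes of IKK activation and then resynthesised under NF-kB control. It had 508 and 521 CPM in cKO-labelled libraries, against 556 and 549.9 CPM in wild type. Both cKO-labelled libraries were lower, but the change of -0.10 ± 0.056 (95% interval -0.22 to 0.01) was not called (edgeR, adjusted p = 0.213). Nfkbie encodes IkB epsilon, a delayed feedback inhibitor that holds c-Rel dimers in B cells. It had 393 and 429.8 CPM in cKO-labelled libraries and 407 and 411 CPM in wild type. The cKO-labelled libraries lay on both sides of wild type, with a change of 0.01 ± 0.059 (95% interval -0.12 to 0.13). The summed FPKM of Nfkbia and Nfkbie was divided by that of the 5 subunits. This ratio was 1.11 and 1.10 in cKO-labelled libraries, against 1.22 and 1.20 in wild type, without overlap. No test is given for it either, since an exact permutation test of 2 against 2 libraries cannot go below a p of 0.333.

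Of the other IkB family genes, Nfkbib, Nfkbid and Nfkbiz, 1 was higher and 1 lower, where 12.2% and 9.54% of all genes tested were. Nfkbid, a nuclear IkB needed for normal B-cell responses, had 58.9 and 55.1 CPM in cKO-labelled libraries and 66.0 and 69.9 CPM in wild type, a change of -0.25 ± 0.070. Nfkbiz, a nuclear IkB that works with the Nfkb1 product at secondary response genes, had 70.7 and 70.4 CPM in cKO-labelled libraries and 59.6 and 59.7 CPM in wild type, a change of 0.24 ± 0.067. Each was called in the 4-library fit (edgeR, adjusted p = 0.0107), and neither was called with DESeq2 or without wild-type library 2. Without cKO-labelled library 2 the call of Nfkbid was lost, and without wild-type library 1 that of Nfkbiz. With the GC trend removed, Nfkbid was at -0.14 and not called (adjusted p 0.201), and 2 of the 3 genes were higher and 0 lower.

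Both feedback regulators outside the IkB family rose. Traf1, an adaptor that NF-kB induces and that binds Traf2 at CD40 and related receptors, had 396 and 428 CPM in cKO-labelled libraries, against 332 and 316 CPM in wild type. It had the largest rise of the 10 genes, and the genotypes were apart. Traf1 (ENSMUSG00000026875, chromosome 2, 34941750 to 34961772) changed by 0.35 ± 0.060, a 1.27-fold rise (edgeR, adjusted p = 0.000127). It was called in all 12 alternatives, at 0.29 to 0.40.

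Tnfaip3 encodes A20, which edits ubiquitin chains on signalling proteins and so limits IKK activation. It had 337 and 363 CPM in cKO-labelled libraries, against 293 and 310.2 CPM in wild type. Both cKO-labelled libraries were above both wild-type libraries. Tnfaip3 (ENSMUSG00000019850, chromosome 10, 19000910 to 19015657) changed by 0.22 ± 0.060, a 1.16-fold rise (edgeR, adjusted p = 0.0112). The call was lost without wild-type library 1 (0.17, adjusted p 0.140) and without cKO-labelled library 2 (0.16, adjusted p 0.123), while the direction stayed.

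**Figure D4:**
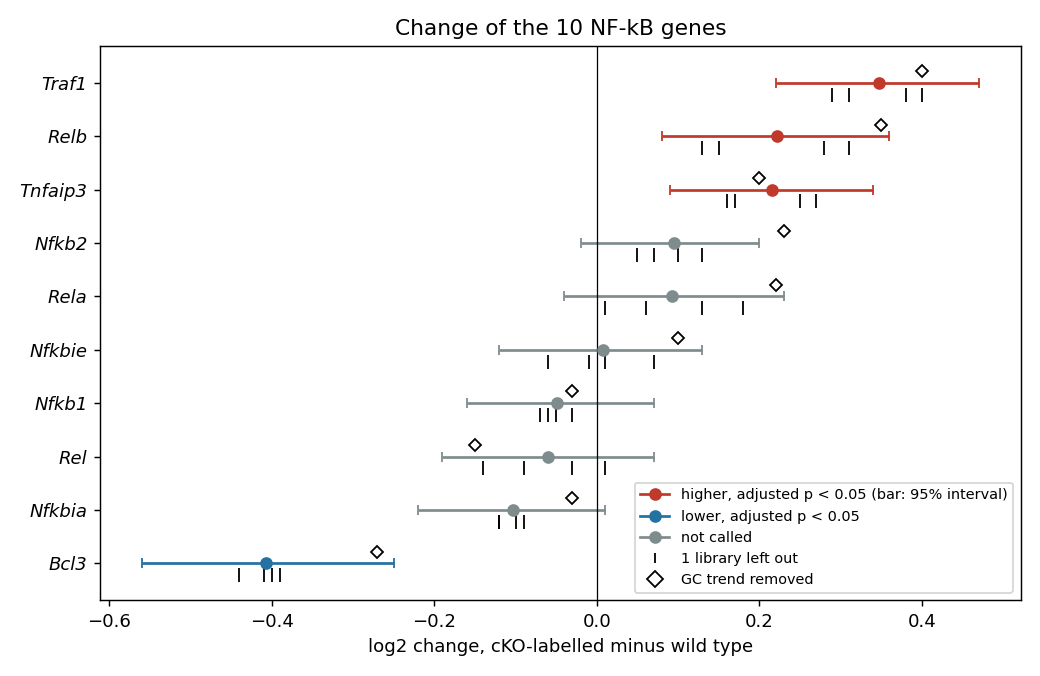
Log2 change of each gene, cKO-labelled minus wild type, with its 95% interval (points and bars; red higher, blue lower, grey not called), the changes with 1 library left out (ticks) and with the GC trend removed (open diamonds). Only Rel and Nfkbie cross 0 in a setting drawn, and the removal of the GC trend moves Nfkb2 and Rela to 0.23 and 0.22.

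GC content of the transcripts moved with the changes. Over all genes tested, the median change was 0.09 for genes with under 40% GC and -0.10 for those with 55% to 60%. Nfkb2, Rela, Relb and Bcl3 have 59.1%, 58.8%, 59.1% and 59.3% GC, while Rel has 42.5%. With each library's GC trend removed, Relb changed by 0.35 (adjusted p 0.000481), and Nfkb2 and Rela were called higher at 0.23 (adjusted p 0.00183) and 0.22 (adjusted p 0.0206) by edgeR. Bcl3 was still lower, at -0.27 (adjusted p 0.0114). In that fit 5 of the 10 genes were higher and 1 lower, where 18.7% of all genes tested were called (11.5% higher and 7.2% lower). The share called among genes of at least 40 CPM, the closer comparison for the 10 genes, was not computed for that fit.

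Further genes of the pathway were read by role in 6 lists of 56 genes, all of which were tested. Of these, 22 were higher and 3 lower, 44.6% of the 56, beside 21.7% of all genes tested and 29.9% of those of at least 40 CPM. With 1 library left out, 15 to 22 of them were higher and 2 lower each time. The calls of each single list are to be read against the same shares, 21.7% and 29.9%. The lists were chosen with earlier results of these data known, so no excess over these shares is inferred. The rises were most frequent at the CD40 receptor and its adaptors. Of those 8 genes, 5 were higher and 0 lower, with a median change of 0.32. Cd40, the receptor that the culture engages, had 186 and 188 CPM in cKO-labelled libraries, against 115 and 115 CPM in wild type, a change of 0.71 ± 0.058. Traf5, an adaptor of CD40, changed by 0.75 ± 0.10. Tank, which binds TRAF proteins and restrains their signals, changed by 0.60 ± 0.066, and Traf6, the ligase adaptor that CD40 and Toll-like receptors share, by 0.34 ± 0.066. All 4 were called in all 12 alternatives.

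Genes that carry the B-cell receptor signal to IKK went both ways, with 2 of 6 higher, 1 lower and a median of -0.01. Prkcb, a protein kinase C that B-cell receptor signalling activates, had 286 and 307 CPM in cKO-labelled libraries, against 349 and 385 CPM in wild type, a change of -0.31 ± 0.062. Bcl10 and Malt1, which act together upstream of IKK, rose by 0.23 ± 0.062 and 0.23 ± 0.059. Neither was called without wild-type library 1, nor Bcl10 with DESeq2, nor Malt1 with the GC trend removed.

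Of 10 IKK and TAK1 kinase genes, 2 were higher and 0 lower, with a median of 0.06. This share was close to the 21.7% called over all genes tested and below the 29.9% of those of at least 40 CPM. Chuk, Ikbkb and Ikbkg, which make up the IKK complex, had changes of 0.09 ± 0.065, 0.05 ± 0.059 and 0.04 ± 0.071. Map3k14, which encodes NIK, had 25.5 and 24.9 CPM in cKO-labelled libraries and 30.4 and 28.9 CPM in wild type. Its change of -0.23 ± 0.10 was not called (edgeR, adjusted p = 0.106). The 2 higher genes were Tab2, a ubiquitin-binding partner of TAK1, at 0.23 ± 0.063, and Ikbke, a kinase of the interferon response, at 0.25 ± 0.072. Leaving out 1 library ended the call of Tab2 (wild-type library 2 or cKO-labelled library 1) or of Ikbke (wild-type library 1 or cKO-labelled library 2), and Ikbke was not called with DESeq2.

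Of the 12 ubiquitin-editing partners of A20 and related enzymes, 4 were higher and 0 lower, with a median of 0.20. This share was close to the 29.9% called among tested genes of at least 40 CPM. Cyld, a deubiquitinase that limits IKK activation, had 143 and 144 CPM in cKO-labelled libraries, against 113 and 109 CPM in wild type, a change of 0.37 ± 0.060 that was called in all 12 alternatives. Itch and Rnf11, which form a complex with A20, changed by 0.28 ± 0.067 and 0.40 ± 0.11, and Tnip1, which recruits A20 to ubiquitin chains, by 0.26 ± 0.067. Without wild-type library 1, Itch, Rnf11 and Tnip1 were not called and the number of genes called in this list was 1. Rnf11 was not called without cKO-labelled library 1 either. The subunits of the linear ubiquitin ligase, Rnf31, Rbck1 and Sharpin, were not called.

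Of 17 known targets of NF-kB in B cells, 8 were higher and 1 (Cd83) lower, with a median of 0.08. Ccl22, a chemokine of activated B cells, had 2888 and 2901 CPM in cKO-labelled libraries, against 1343 and 1422 CPM in wild type. The co-stimulatory ligands Cd86 and Cd80 changed by 1.09 ± 0.067 and 1.03 ± 0.069, and the death receptor Fas by 0.80 ± 0.073. These 4 were called in all 12 alternatives. The other 4 rose less: the adhesion molecule Icam1 by 0.32 ± 0.061, the stress-induced Gadd45b by 0.35 ± 0.063, the caspase-8 regulator Cflar by 0.39 ± 0.059 and the cytokine Il6 by 0.54 ± 0.15. Of these, Il6 was not called without wild-type library 2 (0.45) or cKO-labelled library 1 (0.35). Bcl2l1, Bcl2a1b, Bcl2a1d, Irf4, Ebi3 and Tnf were not called, with changes between -0.10 and 0.09. Bcl2a1b and Bcl2a1d are near-identical copies whose reads may be split between them. Cd83, a surface marker of B-cell activation, had 682 and 689.5 CPM in cKO-labelled libraries, against 779 and 764 CPM in wild type, a change of -0.17 ± 0.054. It was not called without wild-type library 1, wild-type library 2 or cKO-labelled library 1.

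**Figure D5:**
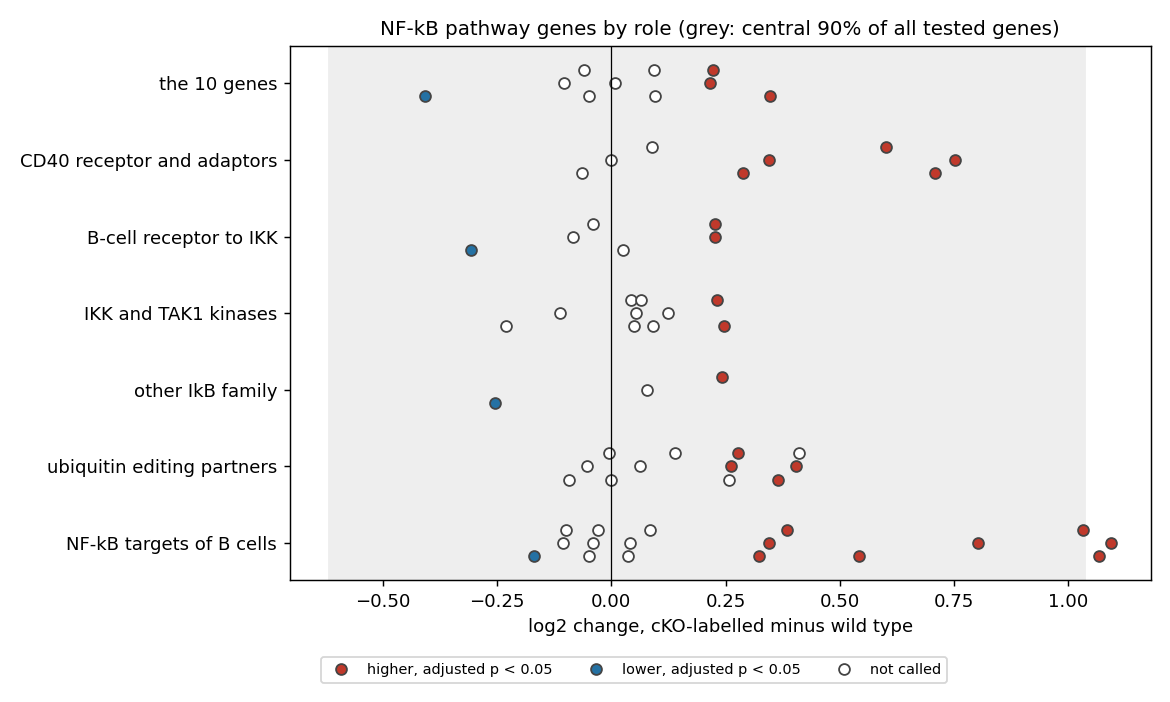
Log2 changes, cKO-labelled minus wild type, of the 10 genes and of 56 pathway genes in 6 lists by role (1 point per gene; red higher, blue lower, open not called), over the central 90% of all tested genes (grey, -0.62 to 1.04). Calls to the right are most frequent among the CD40 genes and the targets, and the 10 genes lie between -0.41 and 0.35.

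Other programmes moved too, and their calls are to be read against 12.2% higher and 9.54% lower over all genes tested. All 10 genes of a short interferon-stimulated list were higher, with a median of 2.68 and a summed level of 1266 and 1273 CPM in cKO-labelled libraries, against 411 and 409 CPM in wild type. Of 7 dendritic cell markers 5 were tested and 4 were higher, with a summed level of 114 and 120 CPM in cKO-labelled libraries against 60.1 and 59.1 CPM in wild type. Most of that sum was Flt3 and Zbtb46. Batf3 had 6.27 and 6.59 CPM in cKO-labelled libraries against 1.74 and 2.03 CPM in wild type. Itgax had 2.00 and 2.92 CPM in cKO-labelled libraries against 0.41 and 0.51 CPM in wild type, and both genes were called higher. Xcr1, not called, had 4.61 and 4.13 CPM in cKO-labelled libraries and 3.42 and 3.10 CPM in wild type. Clec9a and Siglech were not tested, at or under 0.115 and 0.802 CPM in every library. Relb and Traf1 are also transcripts of mature dendritic cells. The part of interferon and of dendritic cells in the rises of Relb, Traf1, Tnfaip3 and their pathway was not tested, and in such bulk samples fewer cells of a type and less RNA per cell cannot be told apart.

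Of 6 macrophage markers 3 were tested and Adgre1 was lower, with 30.3 and 40.3 CPM in cKO-labelled libraries against 111 and 108 CPM in wild type. Adgre1 made up most of the sum of the list, which was 41.4 and 50.8 CPM in cKO-labelled libraries against 125 and 119 CPM in wild type. NK-cell, neutrophil and T-cell markers summed to at most 6.93, 3.32 and 2.64 CPM in a library, with Nkg7 and Prf1 of the NK-cell list and S100a9 of the neutrophil list higher. Without cKO-labelled library 2 neither Nkg7 nor S100a9 was called, and S100a9 was not called without wild-type library 2 or with DESeq2. Since Nfkbia and Tnfaip3 also respond to handling, 10 stress genes were read beside them. Dusp1 and Jun were higher at 1.21 ± 0.12 and 0.48 ± 0.081, Ier2 was lower at -0.39 ± 0.066, and the other 7 were not called. The 3 calls among these 10 stand beside 21.7% of all genes tested and 29.9% of those of at least 40 CPM. The median change of the 10 was 0.48, against -0.0058 over all genes tested, and Fos, Fosb, Hspa1a and Hspa1b, all low, had changes of 0.50 ± 0.22, 0.48 ± 0.49, 1.45 ± 0.58 and 0.55 ± 0.37. Hspa1a and Hspa1b are near-identical copies whose reads may be split. The summed level of the 10, carried mostly by Junb and Ier2, was 637 and 645 CPM in cKO-labelled libraries and 651 and 633 CPM in wild type. The part of handling in these results was not tested.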

How the data were processed

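Poly(A) RNA from 4 libraries was sequenced. Per the labels' protocols, the kit was NEBNext Ultra RNA, whose reads carry no strand mark. The submitters' processing notes name HISAT2 2.0.1, HTSeq 0.6.1 and build GRCm38, besides bcl2fastq 2.17.1.14 and cutadapt 1.9.1. Their roles, the strand setting of counting and the annotation used are not given here. The deposited table holds the authors' read counts per gene for 55401 rows, all of which named a gene. The authors' FPKM, deposited beside them, were within 0.005 of values recomputed from count, exonic length and library total, and served only for levels between genes.

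Counts were tested with edgeR 4.0.16 (R 4.3.3): filterByExpr (minimum count 10, minimum total 15) kept 14180 genes, libraries were scaled by TMM, and the genotypes were compared by glmQLFit and glmQLFTest, two-sided, adjusted by Benjamini-Hochberg over all genes tested. The SE is the size of the change over the square root of its F statistic, and the 95% interval uses the test's degrees of freedom. The biological coefficient of variation was 6.13%. A count was worth 0.0508 to 0.0577 CPM on library totals, before TMM scaling. GC content was taken from GENCODE M21 transcripts (99.53% of rows) and promoters from RefSeq (GRCm38.p6). The members and lists were chosen with earlier results of these data known. All 10 members are named, with up to 4 called genes of each pathway list and up to 3 of each other list, by smallest adjusted p; a few more are given with values and were chosen after these were seen. In all 12 alternatives were run: RLE factors, no scaling factors, DESeq2 1.42.0, no filter, GC trend removed (loess, span 0.5), replicate block, both of these, no ribosomal RNA rows, and each library left out.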

Additional observations from a re-analysis of the deposited data

How the results depend on the processing

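Over the 12 alternatives, Traf1 and Bcl3 were called in the same direction each time, and Nfkb1, Rel, Nfkbia and Nfkbie in none. The number of the 10 genes called was 2 to 4 with 1 library left out, of which 1 to 3 were higher and 1 lower. Relb was 0.13 to 0.31 and Tnfaip3 0.16 to 0.27 with 1 library left out, below the threshold in 2 of those 4 settings each, and Relb was 0.22 (adjusted p 0.0770) with DESeq2. Near-zero changes turned sign when 1 library was left out: Nfkbie ran from -0.06 (without cKO-labelled library 2) to 0.07 and was -0.01 without wild-type library 1, and Rel ran from -0.14 to 0.01 (without wild-type library 2). With the GC trend removed, 5 of the 10 genes were higher, with Nfkb2 at 0.23 and Rela at 0.22. Replicate numbers pair libraries by name only: differences between libraries 1 and 2 correlated at -0.029 across 14180 genes between the genotypes. With the number as a replicate block, 1904 genes were higher and 1594 lower over the whole table, and no call among the 10 genes changed (Relb 0.22, adjusted p 0.0038). With the replicate block and the GC trend removed together, 5 of the 10 genes were higher, with Nfkb2 and Rela both at 0.23, and neither Rnf11 nor S100a9 was called (adjusted p 0.057 and 0.0737). Of all genes tested, 1727 were higher and 1353 lower, and DESeq2 called 795 lower. The cause of these shifts was not tested. With 2 libraries per genotype, and 1 in an arm where a library was left out and assumed to vary like the other group, changes near 0.2 lay close to the threshold.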

Other observations

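Psd, a neuronal exchange factor gene that overlaps the end of Nfkb2 on the opposite strand, was listed with 3708 and 3756 counts in cKO-labelled libraries and 3400 and 3731 counts in wild type. These were 21.01% and 20.75% of the Nfkb2 counts in cKO-labelled libraries, and 20.66% and 20.31% in wild type. The share was close to constant over the 4 libraries. The libraries do not mark strand, so reads of this stretch cannot be assigned to 1 of the genes, and 299 exonic bases are shared.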
